A study of Mus musculus with 31 samples.

Results

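The comparison described here sets neural stem cells (NSCs) cultured from the region of the IV ventricle against NSCs cultured from the cerebellar white matter, and its members are the 6 arrays whose titles name those regions, of 31 arrays in the series. All 6 cultures came from C57BL/6 mice at postnatal day 7, and their sample names carry the mark WT. Each region gave 3 cultures labelled as biological replicates. The cells were grown as neurospheres, free-floating balls of dividing progenitors, with EGF and FGF2, so every level below is that of cultured cells and not of the tissue. The labels do not say whether the 3 cultures of a region came from separate animals, and p-values then measure only the spread between these samples. Forebrain NSCs, taken from the subventricular zone (SVZ), also 3 cultures of the same strain and age, serve as a regional reference. Values are log2 intensities after RMA, a standard normalization of Affymetrix arrays, and 18194 genes were measured. Without counts, the number of arrays is what limits the precision.

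The hindbrain is divided along its length early in development. Otx2 marks the forebrain and midbrain side of the midbrain-hindbrain boundary, En1 and En2 mark the tissue on both sides of it from which the cerebellum arises, and Hox genes mark the hindbrain segments (rhombomeres) and spinal cord behind. Cultured neural stem cells are known to keep part of the positional code of the tissue they were taken from, so the question put by this comparison is which genes separate progenitors from 2 neighbouring hindbrain sites.

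Promoter sequences are printed for 3 of the genes that differed once IV ventricle replicate 2 was left out, to show what lies at their starts. Each runs from 250 bases before to 50 bases after a RefSeq transcript start (build GRCm38.p6), 5′ to 3′ on the strand of the gene, which is the minus strand for all 3. Capitals mark a match, on either strand, to TGATNNAT, the site of Hox proteins paired with their PBX cofactors, or to TAATTA, the core read by many homeodomain proteins. The Otx2 window, chr14:48667595-48667894, is the most upstream of 4 listed for the gene. The Hoxa2 window is chr6:52164782-52165081 and the Efna5 window is chr17:62881268-62881567.
Otx2: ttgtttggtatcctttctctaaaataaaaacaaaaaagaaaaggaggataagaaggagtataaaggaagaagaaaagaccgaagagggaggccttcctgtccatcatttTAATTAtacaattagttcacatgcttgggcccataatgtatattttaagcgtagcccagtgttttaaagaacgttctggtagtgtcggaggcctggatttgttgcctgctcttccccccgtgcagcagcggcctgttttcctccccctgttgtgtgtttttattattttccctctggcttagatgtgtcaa
Hoxa2: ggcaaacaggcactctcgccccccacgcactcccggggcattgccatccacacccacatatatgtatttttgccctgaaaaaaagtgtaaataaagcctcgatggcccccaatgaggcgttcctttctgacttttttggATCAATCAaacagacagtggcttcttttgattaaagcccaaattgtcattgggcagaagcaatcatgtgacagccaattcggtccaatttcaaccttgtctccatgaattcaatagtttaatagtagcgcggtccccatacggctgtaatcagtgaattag
Efna5: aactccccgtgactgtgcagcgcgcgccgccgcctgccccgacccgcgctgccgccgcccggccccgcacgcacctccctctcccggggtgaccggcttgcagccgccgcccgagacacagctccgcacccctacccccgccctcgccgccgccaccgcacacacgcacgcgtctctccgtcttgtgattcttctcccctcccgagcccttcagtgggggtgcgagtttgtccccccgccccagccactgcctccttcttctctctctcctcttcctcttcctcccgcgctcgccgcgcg
The Otx2 window held 1 match to TAATTA, starting at base 110, and the Hoxa2 window held 1 match to TGATNNAT, read on the reverse strand and starting at base 140. The Efna5 window held neither. Of 32851 windows of the same length, 8.846% held TGATNNAT and 5.291% held TAATTA, and a match describes only the letters.

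IV ventricle replicate 2 stood apart from the other cultures of its label and has to be described before any result. Over all genes, the Euclidean distance between IV ventricle replicates 1 and 3 was 34.22 log2 units. Replicate 2 lay 59.35 and 57.93 from them, and 40.01 from cerebellar replicate 3, its nearest neighbour. The 3 cerebellar cultures lay 43.28 to 47.19 from each other. IV ventricle replicate 1 lay 39.15 from cerebellar replicate 1, closer than any cerebellar pair. Sample names carry a letter that follows the replicate number in all 3 regions (F, G and H) and a date mark, and the labels give the meaning of neither. Replicate 2 of the IV ventricle was alone in its mark, cerebellar replicates 1 and 2 shared a mark with IV ventricle replicate 1, and replicates 3 shared another. Replicate 2 of each of the 3 regions also read lower in Xist (3.28 here, 6.90 to 9.31 in the other 2 IV ventricle cultures) and higher in the immediate-early gene Fosb (6.43 against 2.31 and 3.36), and the part of either in the results was not tested. Array medians of the 6 arrays lay between 3.17 and 3.24. Results below are given with all 6 cultures and without IV ventricle replicate 2. That culture was singled out from its patterning genes, so the fit without it is no independent support for a difference in those genes.

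**Figure D1:**
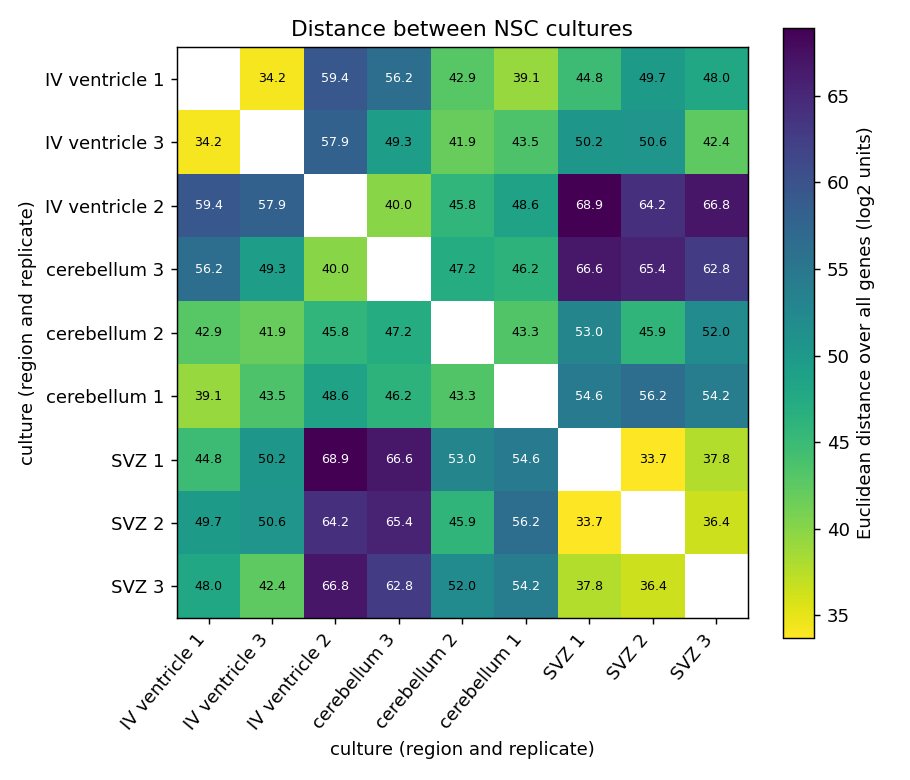
Euclidean distance over all 18194 genes, in log2 units, between each pair of the 9 NSC cultures, with darker cells farther apart and the diagonal left blank. IV ventricle replicates 1 and 3 are 34.2 apart, and replicate 2 is nearer to all 3 cerebellar cultures (40.0 to 48.6) than to either of them.

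The cells had the profile of neural progenitors in all 6 cultures. Sox2, a transcription factor of neural stem cells, read 9.73 to 9.98 and Fabp7, a fatty acid binding protein of radial glia, read 11.98 to 12.61. Olig2, a transcription factor of the oligodendrocyte lineage that neurosphere cells commonly express, read 10.18 to 10.51. Several markers of other cells the dissection could have carried were low. Ttr, made by the choroid plexus that lies in the IV ventricle, read 3.3 to 3.6 in all 6 cultures, and Kl, Folr1 and Kcne2 of the same tissue read 1.2 to 2.0. Atoh1 and Neurod1 of granule neuron precursors read 1.1 to 2.5, and Aif1, Cx3cr1 and Pecam1 of microglia and vessels read 1.1 to 2.0. Neuronal genes were not all low. Gap43 read 9.12 to 10.16 and Nefm 4.05 to 5.59 in the 6 cultures, while Syp read 3.14 to 4.09 and Slc17a7 1.88 to 2.43. For scale, Y-linked genes on 19 arrays of the series with Eif2s3y under 2 read 0.716 to 1.67. In a bulk culture, fewer cells of a type and less RNA per cell cannot be told apart.

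With all 6 cultures, no gene passed the test between the regions. Of 18194 genes, 0 passed an adjusted p of 0.05 in limma (percent called 0, smallest adjusted p 0.9999), and 559 (3.07%) had an unadjusted p under 0.05, of which 167 (0.918%) were higher and 392 (2.15%) lower in IV ventricle cultures. The 2 groups did not overlap in 1294 genes (7.11%), 450 (2.47%) higher and 844 (4.64%) lower. Only 20 genes differed by at least 1 on the log2 scale. Without IV ventricle replicate 2, 7 genes passed (0.0385%), and 1428 (7.85%) had an unadjusted p under 0.05, 671 higher (3.69%) and 757 lower (4.16%). The 2 remaining IV ventricle cultures were above all cerebellar cultures in 1783 genes (9.8%) and below them in 2464 (13.5%). A difference of at least 1 was then found in 153 genes. Leaving out any of the other 5 cultures instead called 0 genes, and the fit of the remaining 5 was in turn lost when IV ventricle replicate 1 or 3 was also left out (0 genes each). The count without replicate 2 also depended on the processing: 2 genes, Otx2 and Efna5, passed with each array centred on its median, 2 with dim genes left out, and 0 when only the arrays compared were fitted, while leaving out a cerebellar culture as well gave 24, 39 and 13 (replicates 1, 2 and 3).

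Among the boundary genes, Otx2 read 5.07, 4.46 and 4.92 in cerebellar replicates 1 to 3 and 1.72, 6.44 and 2.13 in the IV ventricle cultures. IV ventricle replicates 1 and 3 were below every cerebellar culture and replicate 2 was above all of them. With all cultures the difference was -1.39 ± 0.99 (SE, n = 3 and 3, adjusted p = 0.9999 in limma). Without replicate 2 it was -2.89 ± 0.24 (limma adjusted p = 0.0078), with readings just above the Y-linked range, so no fold is given. SVZ cultures averaged 4.59, near the cerebellar readings.

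En2, an engrailed homeodomain factor needed for cerebellar patterning, read 7.58, 7.52 and 7.53 in the cerebellar cultures and varied little among them. The IV ventricle cultures read 4.50, 7.67 and 5.72. Its relative En1 read 5.40, 4.14 and 5.38 in cerebellar cultures and 0.83, 5.58 and 2.49 in IV ventricle cultures, so that replicate 1 was within the range that Y-linked genes gave where Eif2s3y was under 2. Cnpy1, a regulator of FGF signalling at the boundary, read 5.97, 5.51 and 6.10 against 2.73, 6.04 and 4.04, and replicates 1 and 3 were the lowest cultures in all 3 of its probe sets. In all 3 genes IV ventricle replicate 2 read at or above the cerebellar mean and replicates 1 and 3 below every cerebellar culture. None passed the adjusted threshold with all cultures or without replicate 2: without replicate 2, En2 differed by -2.43 (limma adjusted p = 0.0707), En1 by -3.31 (limma adjusted p = 0.0727) and Cnpy1 by -2.47 (limma adjusted p = 0.106). When date marks were fitted as blocks, replicate 2 dropped out of the contrast. En2 (-2.53, limma adjusted p = 0.01827) and Cnpy1 (-2.61, limma adjusted p = 0.01154) then passed. Within the shared mark, where replicate 1 is the only IV ventricle culture, En2 differed by -3.05. Gbx2, which marks the hindbrain side of the boundary, overlapped, with 2.62, 3.63 and 2.77 in cerebellar cultures and 3.53, 3.03 and 2.92 in IV ventricle cultures. Of 23 boundary genes measured, 0 were higher and 2 lower at an unadjusted p under 0.05 with all cultures (0.918% and 2.15% over all genes). Without replicate 2, 0 were higher and 5 lower (3.69% and 4.16% over all genes). The median differences were -0.03 and -0.09, against -0.01 and -0.02 over all genes.

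Hox genes of the hindbrain segments ran the other way. Hoxa2, the most anterior Hox gene of the rhombomeres, read 2.65, 2.65 and 2.16 in cerebellar cultures and 4.21, 1.92 and 4.10 in IV ventricle cultures, and SVZ cultures averaged 1.58. Hoxb2, its paralogue, read 2.78, 2.50 and 2.22 against 4.35, 2.22 and 5.13. IV ventricle replicates 1 and 3 were above every cerebellar culture in both genes, and replicate 2 was at or below the lowest of them. Without replicate 2, Hoxa2 was higher by 1.67 ± 0.19 (3.18-fold) and Hoxb2 by 2.24 ± 0.26 (4.72-fold), each with a limma adjusted p of 0.0395. With all cultures the differences were 0.92 ± 0.51 and 1.40 ± 0.59 (limma adjusted p = 0.9999 for both).

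Of the next genes along the clusters, Hoxa3, Hoxb3 and Hoxa4 had IV ventricle replicates 1 and 3 highest, in smaller steps. Hoxa3 read 3.24, 3.22 and 2.62 against 4.55, 2.79 and 4.75. Hoxb3 read 3.38, 3.61 and 3.48 against 4.01, 3.30 and 4.62. Hoxa4 read 2.51, 2.91 and 2.22 against 3.21, 2.64 and 3.82. Hoxb4 read 1.92 to 2.26 in the cerebellar cultures and 2.18 to 2.52 in those of the IV ventricle, which overlap. None of these 4 passed the adjusted threshold in limma in either fit (adjusted p = 0.101, 0.222, 0.342 and 0.701 without replicate 2). The probe sets of Hoxa3 did not all follow: a second one read 3.10, 3.06 and 3.18 against 3.37, 2.75 and 3.88, and the other 2 read 1.08 to 1.62 in all 6 cultures. A dimmer probe set of Hoxb3 read 1.56, 1.56 and 1.09 against 3.38, 1.41 and 3.37. Without replicate 2 this probe set passed when every probe set was tested (1.97, limma adjusted p = 0.01505), and Hoxb3 passed with the mean of its probe sets (1.40, limma adjusted p = 0.01329). Over the 33 Hox genes measured, 5 were higher and 2 lower at an unadjusted p under 0.05 without replicate 2 (3.69% and 4.16% over all genes). With all cultures 2 were higher and 0 lower (0.918% and 2.15% over all genes). The list median was -0.04 in both fits, against -0.02 and -0.01 over all genes, so the list did not move as a whole.

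**Figure D2:**
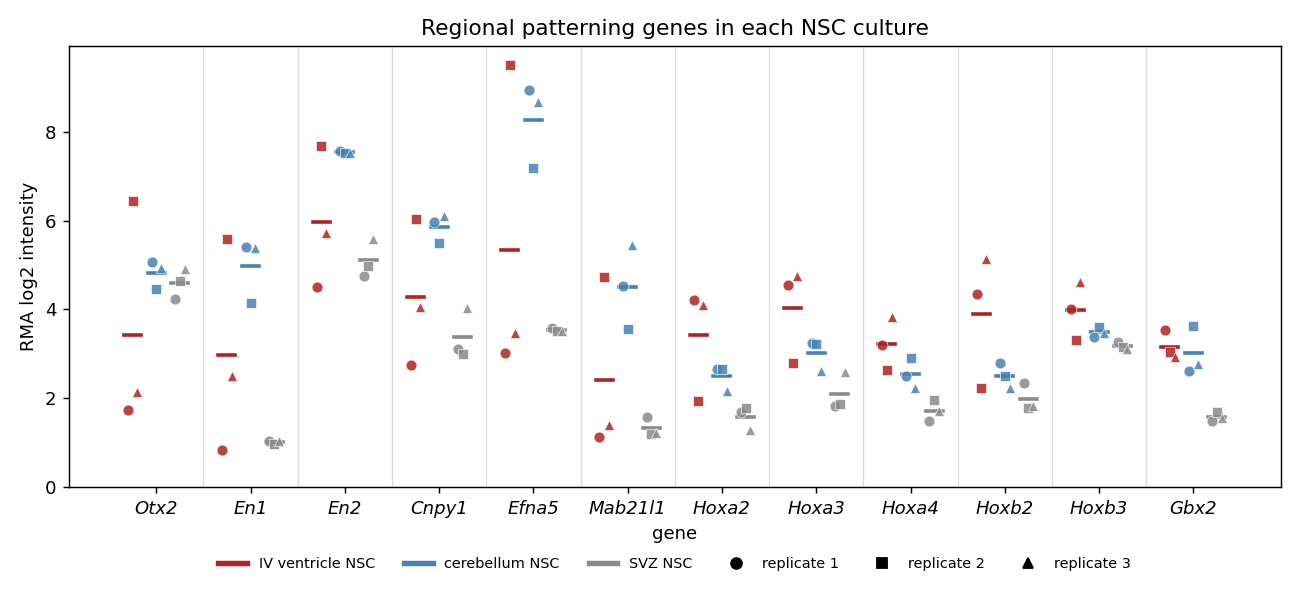
RMA log2 intensity of 12 patterning genes (x axis) in each NSC culture, with colour for region, marker shape for replicate and a bar at each regional mean. In Otx2, En1, En2, Cnpy1, Efna5 and Mab21l1 the squares of IV ventricle replicate 2 sit with or above the cerebellar cultures (blue) while replicates 1 and 3 sit below, and in Hoxa2, Hoxa3 and Hoxb2 this is turned around.

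Retinoic acid, which sets hindbrain position through Hox genes, acts through nuclear receptors. Rara, a retinoic acid receptor, read 3.08, 3.50 and 3.17 in the cerebellar cultures against 4.20, 3.73 and 3.68 in those of the IV ventricle, which did not overlap and included replicate 2 (difference 0.62 ± 0.20, limma adjusted p = 0.9999). Rdh10, which makes the retinoic acid precursor, read 5.38, 5.22 and 4.83 against 5.56, 5.28 and 5.66. Nkx6-1, a ventral progenitor factor, read 1.59, 1.85 and 1.99 against 2.54, 2.15 and 2.32, again without overlap. With all 6 cultures these 3 genes differed by 0.35 to 0.62, and none passed the adjusted threshold in limma. Of 25 retinoid and rhombomere genes, 2 were higher and 0 lower at an unadjusted p under 0.05 with all cultures (0.918% and 2.15% over all genes). Groups did not overlap in 1 higher and 1 lower gene (2.47% and 4.64% over all genes), and the median was 0.008. Without replicate 2, 4 were higher and 1, Meis3, lower (3.69% and 4.16% over all genes, list median 0.04).

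Efna5, a membrane-bound ephrin that repels growing axons and sorts cells at boundaries, had the largest difference of the 7 called genes. It read 8.94, 7.19 and 8.67 in cerebellar cultures and 3.03, 9.50 and 3.46 in IV ventricle cultures, and SVZ cultures averaged 3.54. IV ventricle replicates 1 and 3 were near the SVZ level and replicate 2 above all cerebellar cultures. The difference was -2.94 ± 1.40 with all cultures (limma adjusted p = 0.9999) and -5.02 ± 0.42 without replicate 2 (limma adjusted p = 0.0078), or 32.5-fold. A second, dimmer probe set read 2.87, 2.52 and 3.28 against 1.68, 3.10 and 1.85, with replicates 1 and 3 again lowest but replicate 2 within the cerebellar range. The Eph receptor Epha5 read 6.21 to 6.34 in cerebellar cultures and 5.75, 6.43 and 5.64 in IV ventricle cultures. Efnb2, another ephrin, read 5.67, 5.54 and 6.24 against 5.27, 5.55 and 5.19. Of 21 ephrins and Eph receptors, 2 were higher and 4 lower at an unadjusted p under 0.05 without replicate 2 (3.69% and 4.16% over all genes). With all cultures 0 were higher and 2 lower (0.918% and 2.15% over all genes). The list median was -0.02 in both fits, near that over all genes (-0.02 and -0.01).

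The other 3 genes called without IV ventricle replicate 2 belong to different classes. Alk, a receptor tyrosine kinase of the developing nervous system, read 3.16, 3.04 and 3.08 in the cerebellar cultures against 1.98, 3.55 and 2.05 in those of the IV ventricle (-1.08 ± 0.13, limma adjusted p = 0.0395). Casp1, the caspase that matures interleukin-1 beta, read 2.57, 2.30 and 2.52 against 3.91, 2.34 and 3.87 (1.43 ± 0.17, limma adjusted p = 0.0395). Col26a1, a secreted collagen, read 3.75, 3.95 and 3.66 against 5.04, 2.51 and 4.91 (1.19 ± 0.13, limma adjusted p = 0.0391), and a second probe set read 0.96 to 1.31 in all 6 cultures, close to that low range. In Alk, Efna5 and Otx2 replicate 2 was above all cerebellar cultures, in Col26a1, Hoxa2 and Hoxb2 it was at or below the lowest of them, and only in Casp1 was it between them. Within the date marks that hold both regions, Otx2 differed by -3.04 and -2.79 and Efna5 by -5.04 and -5.21. Hoxa2 differed by 1.56 and 1.93 and Hoxb2 by 1.71 and 2.91. The first value is IV ventricle replicate 1 minus the mean of cerebellar replicates 1 and 2, the second the difference of replicates 3. In all 7 genes IV ventricle replicates 1 and 3 each lay beyond every cerebellar culture. The sign of these differences was therefore fixed beforehand, and only their size is described.

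In 27 genes IV ventricle replicates 1 and 3 both stood at least 1 log2 unit from all cerebellar cultures, 14 higher and 13 lower. Replicate 2 read within the cerebellar range in 10 of them and beyond it, on the far side, in 17. It was on the side of replicates 1 and 3 in 0. Replicate 2 was singled out for its readings in patterning genes, several of which are among the 27, so this is a description of that culture with no test and no separate support. Among the lower genes were Mab21l1, a transcription regulator of eye and hindbrain development (4.53, 3.56 and 5.45 in cerebellar cultures, 1.12, 4.72 and 1.40 in IV ventricle cultures), Nr2e1, the stem cell factor Tlx (4.68, 2.70 and 3.82 against 1.19, 4.69 and 1.21), Gjc1, a gap junction protein (5.38, 5.80 and 5.94 against 3.55, 7.05 and 2.87), and Hmcn1, an extracellular matrix protein (6.04, 5.83 and 7.67 against 3.22, 7.21 and 3.69). Mab21l1, Gjc1 and Hmcn1 were named after their values were seen.

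**Figure D3:**
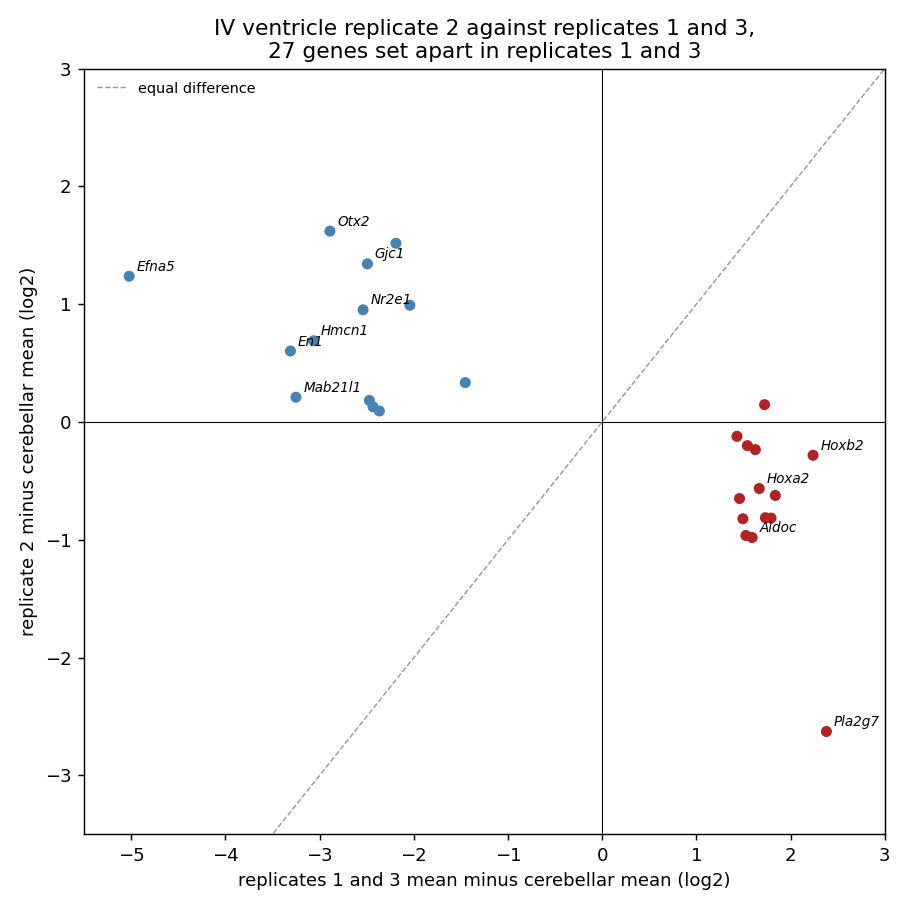
For the 27 genes set apart in IV ventricle replicates 1 and 3, the mean of those cultures minus the cerebellar mean (x axis, log2) against replicate 2 minus the cerebellar mean (y axis, log2). Red points are the 14 higher and blue points the 13 lower genes. No point lies on the dashed line of equal difference.

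Part of the astrocyte list had IV ventricle replicates 1 and 3 high and replicate 2 low. Aldoc, a glycolytic enzyme of astrocytes and Bergmann glia, read 10.22, 10.10 and 9.24 in cerebellar cultures and 11.41, 8.87 and 11.48 in IV ventricle cultures. Apoe, a lipid carrier secreted by astrocytes, read 9.09, 7.47 and 7.30 against 9.39, 6.38 and 9.89. Fgfr3, an FGF receptor of astrocyte precursors, read 7.03, 6.76 and 5.29 against 8.07, 5.05 and 7.65. In each of them IV ventricle replicates 1 and 3 were above all cerebellar cultures and replicate 2 below them. Without replicate 2 the differences were 1.59 for Aldoc, 1.69 for Apoe and 1.50 for Fgfr3, and none passed the adjusted threshold in limma (adjusted p = 0.123, 0.425 and 0.425). Acsbg1, a lipid enzyme of glia, read 8.71, 8.39 and 8.10 against 9.16, 7.99 and 9.02. Slc1a3, the glutamate transporter GLAST of radial glia, read 9.19, 9.15 and 8.50 against 9.83, 8.37 and 9.47. Aqp4, the astrocyte water channel, read 4.93, 2.97 and 2.98 against 5.01, 2.52 and 4.88.

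Of 29 astrocyte genes measured, 14 were higher and 1 lower at an unadjusted p under 0.05 without replicate 2 (median difference 0.62). With all cultures 0 were higher and 1 lower (median 0.19). Over all genes the shares were 3.69% higher and 4.16% lower without replicate 2 (median -0.02). With all cultures they were 0.918% and 2.15% (median -0.01). IV ventricle replicates 1 and 3 were both above every cerebellar culture in 15 of the 29 and both below in 1 (9.8% and 13.5% over all genes). Taken singly, replicate 1 was above every cerebellar culture in 19 and replicate 3 in 16, and replicate 2 was the lowest of the 6 cultures in 13. Such single-culture counts were not made over all genes. Of 26 neural stem and radial glial genes, 5 were higher and 1 lower without replicate 2, and 0 and 0 with it. The lower gene of the astrocyte list, Slc7a10, a D-serine transporter, read 3.08, 2.88 and 2.74 in the cerebellar cultures against 2.45, 2.58 and 2.67 in those of the IV ventricle. Aldh1l1, which acts in folate metabolism and marks astrocytes, read 10.34, 9.44 and 9.29 against 9.54, 9.56 and 8.73. In 22 of the 29 the mean of IV ventricle replicates 1 and 3 was above the cerebellar mean, so most but not all members shared a direction. The astrocyte marker Gfap read 2.92, 2.53 and 2.90 against 4.16, 3.04 and 3.28, without overlap, and passed the adjusted threshold in neither fit. Sparcl1, an astrocyte matrix protein, read 9.92, 8.19 and 9.62 against 9.28, 9.61 and 8.35. The cerebellar cultures varied in the same genes: the median difference from the cerebellar mean was 0.369 in cerebellar replicate 1 and -0.303 in replicate 3, set beside 0.519, -0.414 and 0.471 in IV ventricle replicates 1 to 3. Within the shared date mark 24 of the 29 differences were above 0, and between replicates 3, 21 were. Cerebellar replicate 3 was the lowest of its region in 19 of the 29. Without cerebellar replicate 3 as well, 8 were higher and 2 lower, and the median was 0.36. The counts over all genes in that fit are not given here. Leaving out IV ventricle replicate 1 in place of replicate 2 gave a median of -0.03.

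**Figure D4:**
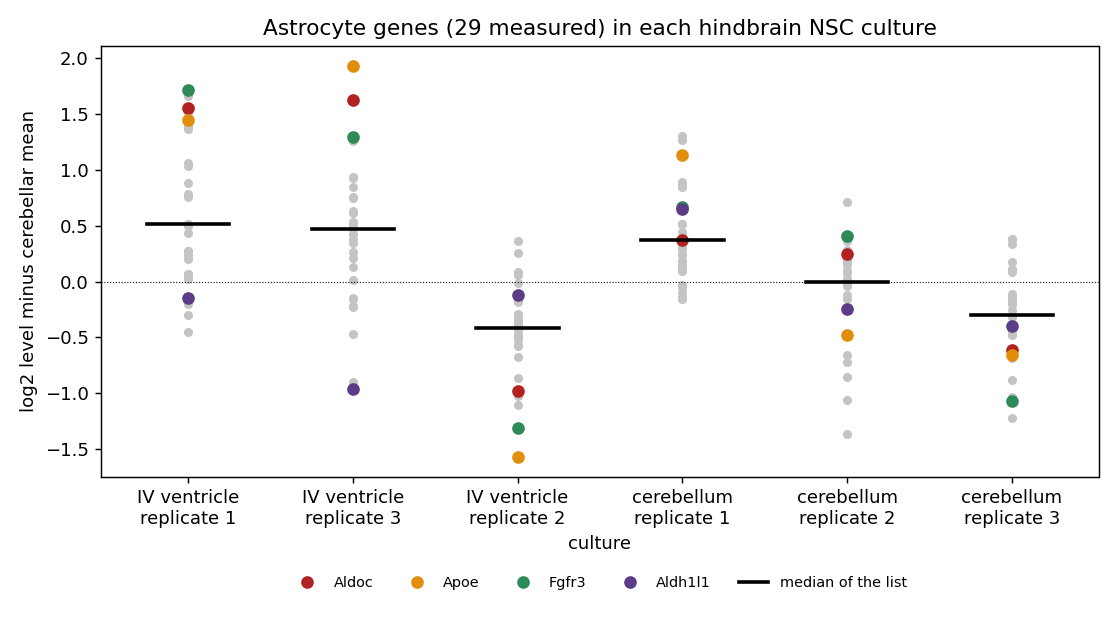
Log2 level of each of 29 astrocyte genes minus its cerebellar mean (y axis) in the 6 hindbrain cultures (x axis), with 4 genes in colour, the others grey and black bars at the median of the list. The medians are 0.519 and 0.471 in IV ventricle replicates 1 and 3 and -0.414 in replicate 2, while cerebellar cultures run from -0.303 to 0.369.

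Adhesion and signalling genes with a like order included Cdh11, a mesenchymal cadherin (4.99, 5.46 and 3.17 in cerebellar cultures, 6.43, 2.21 and 6.33 in IV ventricle cultures), Pcdh18, a protocadherin (3.92, 3.77 and 3.52 against 4.69, 2.89 and 4.22) and Sema5a, a guidance molecule (4.50, 5.47 and 3.72 against 5.59, 2.41 and 6.11). Of 27 cadherins and protocadherins, 7 were higher and 1 lower at an unadjusted p under 0.05 without replicate 2 (3.69% and 4.16% over all genes), but 0 were higher and 2 lower with all cultures (0.918% and 2.15% over all genes). Fgfr2, an FGF receptor, read 4.42, 4.27 and 4.14 against 5.19, 3.78 and 5.32. Hmga2, a chromatin protein of young stem cells, read 6.24, 6.68 and 5.97 against 7.21, 5.65 and 7.67. Pax6, a progenitor homeodomain factor, read 4.74, 5.35 and 4.59 against 5.47, 3.10 and 5.91, and its difference was -0.06 with all cultures and 0.80 without replicate 2. Of 28 neuronal genes, 0 were higher and 6 lower without replicate 2 (3.69% and 4.16% over all genes), and 0 and 0 with all cultures. Among them Nefm, a neurofilament, read 5.37, 5.05 and 4.86 against 4.05, 5.59 and 4.13, and Syp, a synaptic vesicle protein, read 4.09, 3.69 and 3.76 against 3.20, 4.09 and 3.14.

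A further set of genes separated all 3 IV ventricle cultures from all 3 cerebellar ones, replicate 2 included, by small steps. Wnt7b, a Wnt ligand, read 7.20, 7.35 and 6.83 in the cerebellar cultures against 7.84, 7.36 and 7.87 in those of the IV ventricle, and Fzd2, a Wnt receptor, read 6.08, 6.36 and 6.08 against 6.70, 6.46 and 6.42. Nkd1, which dampens Wnt signalling, read 5.74, 6.15 and 5.99 against 4.95, 5.70 and 5.49. Of 52 Wnt genes, 3 were higher and 2 lower at an unadjusted p under 0.05 (0.918% and 2.15% over all genes). Groups did not overlap in 3 higher and 2 lower genes (2.47% and 4.64% over all genes, 7.11% in either direction). Tnr, an extracellular matrix glycoprotein of oligodendrocyte lineage cells, read 3.82, 4.53 and 4.01 against 3.45, 3.26 and 3.53. Sema4d, a semaphorin, read 4.92, 4.55 and 4.94 against 4.29, 4.45 and 3.93, and Pcdh8, a protocadherin, read 2.29, 2.02 and 2.22 against 1.73, 1.73 and 1.56. Each difference was under 1 on the log2 scale and none passed the adjusted threshold in limma (adjusted p = 0.9999).

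Genes with separate groups and an unadjusted p under 0.05 were ranked by size, with predicted and clone symbols left out. The largest difference was that of Cadps, a calcium-dependent activator of vesicle release. It read 3.77, 2.85 and 2.10 in cerebellar cultures and 4.74, 4.07 and 4.35 in IV ventricle cultures, a difference of 1.48 ± 0.34 (2.79-fold, limma adjusted p = 0.9999). Nrn1, a neurite-promoting protein, read 6.08, 4.48 and 5.51 against 6.34, 6.10 and 6.43. The next 6 by size were Amy1, Fbln2, Hdac8, Ccdc25, Col4a6 and Serpinb5, higher by 0.65 to 0.75. The 8 lowest were Zfp979, Ier3, Ypel2, Tnr, Efhd2, Retreg3, Syk and Stat6, with differences from -0.78 to -0.59. Efhd2, an actin-binding calcium sensor, read 5.64, 5.86 and 5.76 against 4.82, 5.17 and 5.20, and Stat6, a cytokine-activated transcription factor, read 3.07, 3.05 and 2.96 against 2.23, 2.57 and 2.51.

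In metabolic lists the counts at an unadjusted p under 0.05 depended on single cultures. Of 20 cholesterol synthesis genes, 3 were higher and 0 lower by that measure with all cultures (0.918% and 2.15% over all genes). In 6 the IV ventricle was higher with groups that did not overlap (2.47% over all genes), and the median difference was 0.20. Without IV ventricle replicate 2, without IV ventricle replicate 1 or without cerebellar replicate 1, 0 were higher at an unadjusted p under 0.05, with medians of 0.18, 0.21 and 0.18. The median itself moved little, from 0.16 to 0.22 over the single-culture leave-outs. Without IV ventricle replicate 2, 8 were higher with groups that did not overlap (9.8% over all genes). Msmo1, a sterol methyl oxidase, read 9.27, 9.24 and 9.26 in the cerebellar cultures against 9.50, 9.49 and 9.50 in those of the IV ventricle. Mvk, mevalonate kinase, read 6.94, 6.94 and 6.91 against 7.12, 7.25 and 7.14. Of 34 hypoxia and glycolysis genes, 3 were lower and 0 higher with all cultures (2.15% and 0.918% over all genes), with a median of -0.19. Without cerebellar replicate 3, 15 were lower (median -0.37), beside 350 lower of all 18194 genes. Without cerebellar replicate 1, 0 were lower and 1 higher (median -0.02), beside 336 lower and 278 higher of all genes. Car9, a carbonic anhydrase induced by low oxygen, read 3.16, 3.12 and 2.63 against 2.52, 2.46 and 2.23. The mean level of that list ran from 6.41 to 7.39 within the cerebellar cultures, wider than the gap between the regions. Mitosis genes and DNA replication genes held 0 members at an unadjusted p under 0.05 in either direction in either fit, of 31 and 40 measured. Without IV ventricle replicate 2, groups did not overlap in 2 higher and 11 lower DNA replication genes (median -0.09) and in 1 higher and 1 lower mitosis gene. Over all genes the shares were 9.8% and 13.5%.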

How the data were processed

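RNA of each culture was measured on 1 Affymetrix mouse array. The deposited values are log2 intensities that the authors made with RMA, per the submitters' processing notes; the sources used here give neither its version nor any detection calls. They were used as deposited. Of 45101 probe sets, 34958 had 1 gene symbol (932 several, 9211 unlisted), and each of 18194 genes was represented by the probe set that averaged highest on the 31 arrays. The 9 NSC arrays were fitted together in limma 3.58.1 (R 4.3.3; lmFit and eBayes, 6 residual degrees of freedom, 5 without IV ventricle replicate 2), and two-sided p-values were adjusted by Benjamini-Hochberg over all genes (threshold 0.05, no minimum fold). The fit was tested on simulated data. Members and gene lists were chosen with earlier results of these data known. Genes named were a fixed set of patterning genes, those called, and the 8 highest and 8 lowest differences with separate groups. Predicted and clone symbols were left out of that ranking. Up to 4 members of each list in its main direction and 2 in the other were also named. A further 12, among them Mab21l1, Gjc1, Hmcn1, Gfap, Aqp4, Aldh1l1 and Sparcl1, were considered after their values were seen. The text names part of these 144 genes. Alternatives were scaling, probe set choice, a filter on dim genes, the prior, blocks, and leaving out each culture.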

Additional observations from a re-analysis of the deposited data

How the results depend on the processing

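With all 6 cultures, 0 genes were called in every alternative except 3. The date mark as a block gave 9 (IV ventricle replicate 2 is alone in its mark and then drops out). Leaving out single cultures gave 0 to 7. The other exception was the shared mark alone, where IV ventricle replicate 1 is the only culture of its region, so no count is given. With the replicate number as a block 0 genes were called. Over all genes, the deviations of same-numbered IV ventricle and cerebellar cultures correlated at 0.377, -0.138 and -0.061 for numbers 1 to 3, so the numbers were not taken as pairs here, although replicates 2 of all regions shared low Xist and high Fosb. Without IV ventricle replicate 2 (7 genes), centring each array on its median gave 2, leaving out dim genes 2, testing every probe set 3, fitting only the arrays compared 0, and leaving out a further culture 0 to 39. The cause was not tested. Pax6 with all cultures turned positive with the mean of probe sets (0.11), the date block (0.78) and the shared mark (0.43), as did Sparcl1 in the shared mark (0.23). Over single-culture leave-outs, differences that changed sign ranged from -0.039 to 0.466 for Gbx2, -0.60 to 0.80 for Pax6, -0.27 to 1.85 for Cdh11, -0.009 to 1.504 for Fgfr3, -0.065 to 1.688 for Apoe, -0.027 to 0.705 for Slc1a3, -0.08 to 1.19 for Col26a1, -0.57 to 1.28 for Sema5a, -0.18 to 0.72 for Pcdh18 and -0.70 to 0.20 for Sparcl1, and, without IV ventricle replicate 2, from -0.082 to 0.532 for Gbx2 and -0.960 to 0.036 for Sparcl1. A region left with 1 culture was assumed to vary like the other groups. Of the 144 genes considered for naming, at most 13 changed sign under any alternative (without IV ventricle replicate 1 or 3).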

Other observations

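Of 28 immediate-early and stress genes, many of which cells switch on quickly after a stimulus, 13 read highest in replicate 2 within each of the 3 regions. Replicate 2 was the highest of its region in 19 for the IV ventricle, 21 for the cerebellum and 20 for the SVZ. In the IV ventricle it was the lowest in 5, among them Btg2 (6.67 against 7.46 and 8.17) and Ier3 (7.23 against 7.42 and 7.47). Fosb read 6.43 in IV ventricle replicate 2, 7.41 in cerebellar replicate 2 and 6.88 in SVZ replicate 2, against 2.12 to 3.36 in the other 6 cultures. Fos, the partner of Jun in AP-1, read 9.54, 10.66 and 10.29 in the same cultures and 7.99 to 8.87 in the others. Ier2 read 7.80, 8.08 and 7.58 against 6.32 to 6.75. The mean level of 28 immediate-early and stress genes was 6.20, 6.78 and 6.49 in the 3 cultures and 5.78 to 5.84 in the other 6. These genes were picked after their values were seen, and no test was run.

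The X-linked RNA Xist read 3.28, 3.59 and 3.14 in replicate 2 of the IV ventricle, cerebellum and SVZ, and 6.90 to 9.73 in the other 6 cultures. The Y-linked gene Eif2s3y read 6.31 to 6.36 in those 3 cultures. It also read 4.75 to 6.13 in 5 of the other 6 cultures, which therefore carried Xist and Y-linked signal together, and 1.25 in SVZ replicate 1. The labels give no sex.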
